A study of Mus musculus with 6 samples.

Results

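Sialyltransferases are the Golgi enzymes that cap the sugar chains of glycoproteins and glycolipids with sialic acid. Expression of 10 of their genes was examined in IL-2-activated CD8+ T cells (CD8-TC) of Runx3-/- and wild type (WT) mice. The genes were St6gal1, St3gal1 to St3gal6, St8sia4, St6galnac4 and St6galnac6, out of 20 genes of the family and 19938 genes with a row of their own in the deposited table. Each gene was read from the array row with that single symbol and, where there were several, from the row with the highest mean over all 6 arrays. Rows were thus chosen by their mean level over both genotypes, a measured value that holds no genotype difference, but the family was taken up with the difference of St6gal1 already known, so its p-value is no independent support.

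There were 3 KO-labelled arrays and 3 WT arrays, each from the splenic cells of 1 mouse. The labels give Runx3 -/- for the KO-labelled group and Runx3 +/+ for the WT group, and ICR males aged 6 weeks for both. CD8-TC were selected with anti-CD8 beads, stimulated for 2 days through the T cell receptor with anti-CD3 and anti-CD28, and grown for 4 days with human IL-2 at 100 units per ml. Runx3-/- cells were in addition sorted against CD11c+CD8+ dendritic cells before culture and against CD4+CD8- T cells after it, so that sorting and genotype cannot be told apart. The sources used here do not name the exon or allele that was disrupted.

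The type of bond sets what each enzyme makes. ST6GAL1 attaches sialic acid in alpha-2,6 linkage to galactose at the ends of N-glycans, which forms the ligand of the B cell lectin CD22 and keeps galectin-1 from binding. The ST3GAL enzymes attach it in alpha-2,3 linkage to galactose, on core 1 O-glycans, on N-acetyllactosamine chains or on glycolipids, and some of them contribute to selectin ligands. The ST6GALNAC enzymes attach it in alpha-2,6 linkage to N-acetylgalactosamine or its neighbours, and the ST8SIA enzymes in alpha-2,8 linkage to another sialic acid. In T cells the balance of these caps is known to shift between the naive and the activated state.

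Values are log2 expression after robust multichip average normalization. Depth cannot be given for arrays, and their number limits the precision. The median over all array values, 4.26, stood in for the background level, and a gene was tested if at least 1 array reached it. Runx3 itself did not separate the genotypes. It read 8.91, 9.11 and 9.27 on the KO-labelled arrays, against 8.77, 8.26 and 9.16 on the WT arrays, and since the probes may lie outside the disrupted part this does not check the labels. The WT replicate 1 array, labelled male, had Xist at 10.6, whereas the other 5 arrays had it between 3.31 and 3.40. KO-labelled replicate 2 stood 1.44 log2 units below the mean of the arrays over 19 tested mitosis genes, where the other 5 arrays lay between -0.34 and 0.72. CD8-TC markers were high on all arrays over 9 genes that include Cd3e, Cd8a and Cd8b1. Their list mean was 10.48 to 10.67 in KO-labelled cells and 10.08 to 10.48 in WT cells. Of the 9, 0 passed an adjusted p of 0.05 in limma. Cd5 alone passed the study's threshold (unadjusted p of 0.05, change of 1.5-fold), as higher, beside 3.97% of all tested genes. It stood 1.12 higher in KO-labelled cells (limma, adjusted p = 0.216), Cd2 0.56 and Cd28 0.54, each with the groups apart, against 11.6% of all tested genes. Cd8a had a difference of -0.30 with overlapping groups.

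St6gal1, the alpha-2,6 enzyme for galactose, was higher in KO-labelled cells and was the member with the largest difference. The 5 tested alpha-2,3 genes did not share it, 4 of them having a slightly lower mean in KO-labelled cells and St3gal2 a higher one, and none passed the adjusted threshold. St8sia4, the alpha-2,8 enzyme, had a higher mean in KO-labelled cells, and both genes for alpha-2,6 linkage to N-acetylgalactosamine differed by no more than 0.11 on the log2 scale. St3gal5 did not reach the table median on any array.

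**Figure D1:**
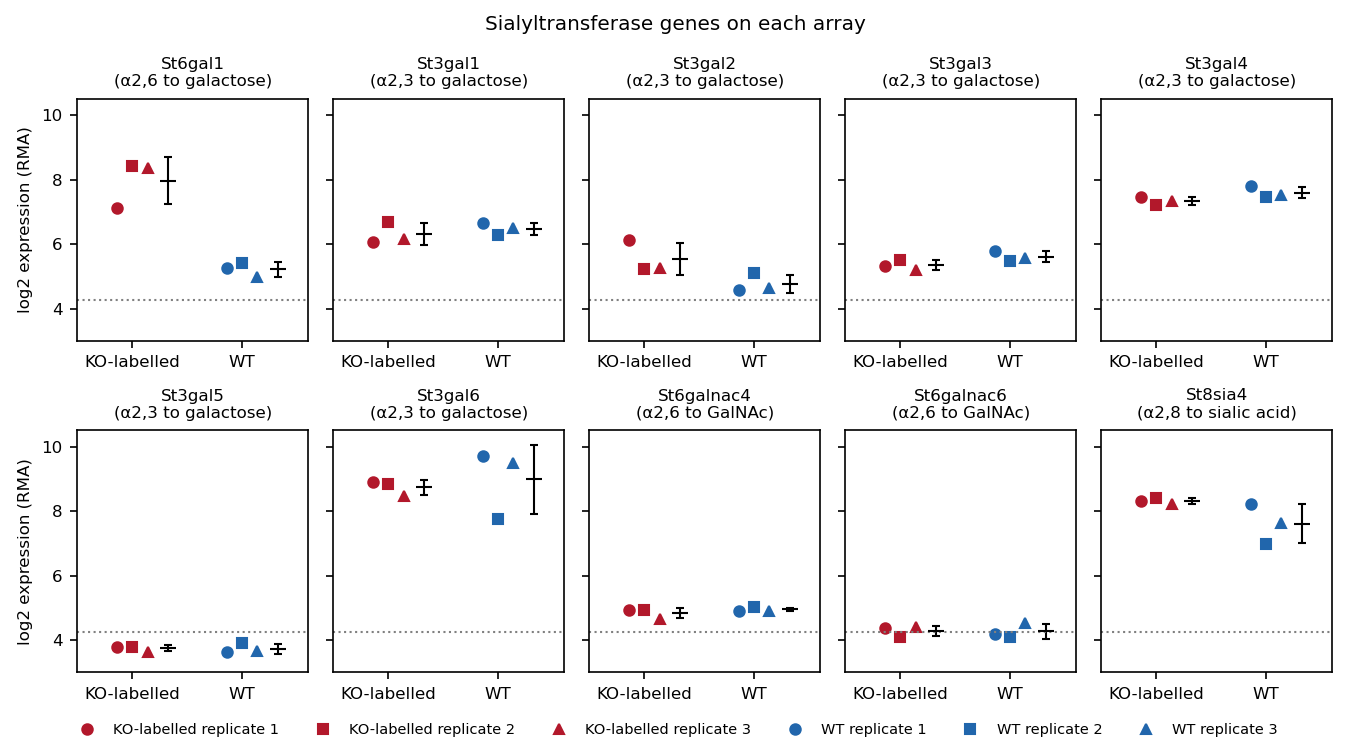
Log2 expression (vertical axis) of the 10 sialyltransferase genes on each array, KO-labelled in red and WT in blue, with symbols for replicates 1, 2 and 3, the mean ± SD of each group (n = 3) in black and the table median of 4.26 as a dotted line. St6gal1 lay at 7.12 or more on the KO-labelled arrays and at 5.42 or less on the WT arrays, while most other genes overlapped.

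St6gal1 read 7.12, 8.43 and 8.36 on the KO-labelled arrays, and 5.26, 5.42 and 4.97 on the WT arrays. The groups did not overlap, all 6 values were above the table median, and KO-labelled replicate 1 was the nearest of its group to WT. The means were 7.97 ± 0.74 in KO-labelled cells and 5.22 ± 0.23 in WT cells (SD, n = 3 each). This is a rise of 2.75 on the log2 scale, or 6.73-fold (SE 0.36, 95% confidence interval 1.90 to 3.60, limma, adjusted p = 0.0328 over 10021 tested genes). By size this rise was number 6 among the 27 genes called higher, and by p it was number 36 among all tested genes.

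Leaving out any array but KO-labelled replicate 1 ended the call, and the direction stayed. Without KO-labelled replicate 2 the difference was 2.52 (limma, adjusted p = 0.0827), and without KO-labelled replicate 3 it was 2.55 (adjusted p = 0.119). Leaving out WT replicate 1, whose sex label its Xist level contradicts, gave 2.77 (adjusted p = 0.0998), and without WT replicates 2 and 3 in turn the adjusted p was 0.0750 and 0.147. Without KO-labelled replicate 1 the difference was 3.18 (adjusted p = 0.00664).

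**Figure D2:**
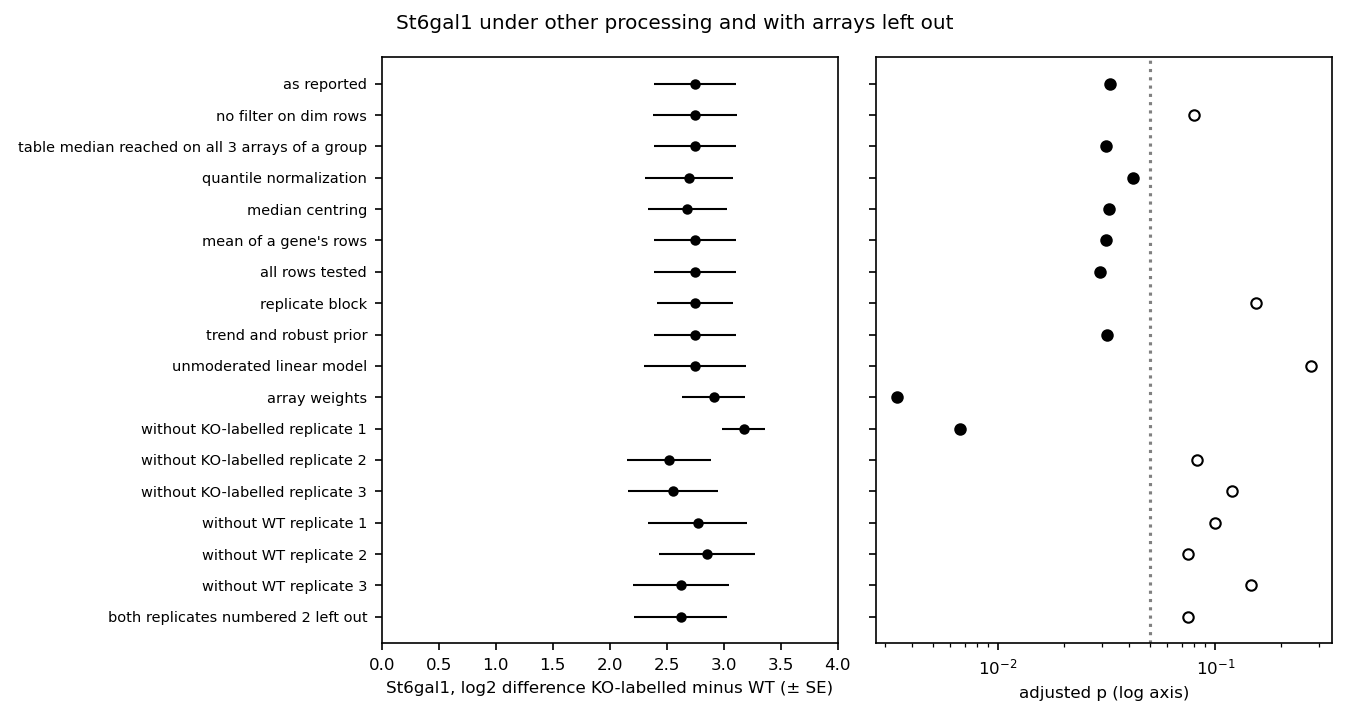
Difference of St6gal1 in log2 expression between KO-labelled and WT arrays with its SE (left) and its adjusted p on a log axis (right, dotted line at 0.05, filled points below it), as reported and under each alternative. The difference stayed between 2.52 and 3.18, while the adjusted p ranged up to 0.276.

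The start sites of St6gal1 are shown here because it is the member that was called and because the study searched Runx3-bound regions for RUNX motifs. RefSeq lists 3 of them for mouse St6gal1 (GRCm38.p6, plus strand), each given as the 250 bases before and 50 bases after the start, with any RUNX motif in capitals.
St6gal1 start 1, chr16:23224490-23224789: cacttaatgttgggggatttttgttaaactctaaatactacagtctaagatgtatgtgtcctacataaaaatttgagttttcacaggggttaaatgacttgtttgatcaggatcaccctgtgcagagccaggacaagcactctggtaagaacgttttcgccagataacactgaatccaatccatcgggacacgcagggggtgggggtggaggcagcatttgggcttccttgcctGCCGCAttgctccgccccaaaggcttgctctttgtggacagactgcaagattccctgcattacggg
St6gal1 start 2, chr16:23225771-23226070: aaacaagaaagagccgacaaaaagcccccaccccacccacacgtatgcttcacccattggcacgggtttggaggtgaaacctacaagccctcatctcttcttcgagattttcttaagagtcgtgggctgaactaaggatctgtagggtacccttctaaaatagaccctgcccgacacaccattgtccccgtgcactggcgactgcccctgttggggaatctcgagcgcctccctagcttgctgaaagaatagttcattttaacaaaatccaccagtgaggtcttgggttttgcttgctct
St6gal1 start 3, chr16:23290220-23290519: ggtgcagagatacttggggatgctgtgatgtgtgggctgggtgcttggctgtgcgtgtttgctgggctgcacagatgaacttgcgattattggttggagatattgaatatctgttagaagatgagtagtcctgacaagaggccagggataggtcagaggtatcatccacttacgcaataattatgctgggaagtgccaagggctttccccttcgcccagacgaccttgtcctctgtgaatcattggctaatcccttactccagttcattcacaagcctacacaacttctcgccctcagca

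The letters TGTGGT (in 16.8% of all windows), TGTGGC (in 18.9% of all windows), TGCGGT (in 6.45% of all windows) and TGCGGC (in 12.4% of all windows) were searched on both strands. Start 1 held 1 match, a TGCGGC on the opposite strand that begins 16 bases before the start, and starts 2 and 3 held none. A window of this length held at least 1 of the 4 motifs in 45.2% of all 32851 RefSeq promoters, so a match there is common. Of the 10 genes, 8 had an entry, with 11 windows in all, and 5 of these windows held a match. St3gal3 had 4 matches, St8sia4 2 TGTGGT matches and St6galnac4 2 matches, while the windows of St3gal4, St3gal5 and St6galnac6 had none. These matches are a description of the letters and were not set against binding.

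The neighbourhood of St6gal1 in the same annotation gave a further reading. BC106179, a long noncoding RNA gene that overlaps the 5' end of St6gal1, read 4.44, 5.66 and 5.0 on the KO-labelled arrays, against 3.86, 3.88 and 3.89 on the WT arrays. All 3 WT values were below the table median, so the gene was tested only through its KO-labelled values. The difference was 1.16 (SE 0.29, limma, adjusted p = 0.169) and was not called. The study's own gene table carries this array row under the symbol St6gal1, so that the row may read St6gal1 transcripts, which was not tested.

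Of 10 annotated genes with a row within 250 kb of St6gal1, 5 reached the table median and 0 passed an adjusted p of 0.05 in limma, while 4 of them, BC106179 included, had an unadjusted p under 0.05, as had 1413 of all 10021 tested genes. The noncoding RNA C730014E05Rik stood 1.0 higher in KO-labelled cells (adjusted p = 0.162) and Eif4a2, a translation initiation helicase, 0.60 higher (adjusted p = 0.270). Rtp4, an interferon-induced gene on the other side, stood 0.91 lower, with a difference of -0.91 (adjusted p = 0.0904). Among the close neighbours St6gal1 was thus the gene with the largest difference, as a description. Rtp4, Eif4a2 and C730014E05Rik were chosen after their values were seen.

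The genes with a profile most like that of St6gal1 over the 6 arrays were found by the mean absolute difference of log2 values, each gene being centred on its own mean. The nearest was Slc6a19, a neutral amino acid transporter, at a distance of 0.30 (difference 2.67). Its WT values were all below the table median, so that it was tested only through its KO-labelled values. Next came H2-Ob, a modulator of class II antigen loading (distance 0.38, difference 2.55), and P2rx7, an ATP-gated channel (distance 0.38, difference 2.53). The adenylyl cyclase Adcy6 lay at a distance of 0.39 and the tetraspanin Tspan32 at 0.40. All 5 had KO-labelled values above WT values on every array, and since they were picked for likeness to that step their differences are a description.

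The alpha-2,3 enzymes were examined next. St3gal1, which caps core 1 O-glycans of T cell glycoproteins, read 6.08, 6.69 and 6.15 on the KO-labelled arrays and 6.65, 6.29 and 6.51 on the WT arrays. The groups overlapped, and the difference of -0.17 had a 95% confidence interval of -0.66 to 0.31 (limma, adjusted p = 0.723). A second row of the same symbol, dim on all 6 arrays, gave a difference of 0.08.

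St3gal2, which acts on core 1 O-glycans and on gangliosides, read 6.13, 5.24 and 5.26 on the KO-labelled arrays, against 4.57, 5.09 and 4.63 on the WT arrays. All KO-labelled values were above all WT values, narrowly at the closest, and KO-labelled replicate 1 alone stood well above the rest. The difference was 0.78 (SE 0.28, 95% confidence interval 0.12 to 1.44, limma, adjusted p = 0.294). It passed the study's threshold (unadjusted p of 0.05, change of 1.5-fold) as applied here to limma p-values. Without KO-labelled replicate 1 the difference was 0.49.

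St3gal4 and St3gal6 sialylate N-acetyllactosamine and take part in selectin ligands. St3gal4 read 7.46, 7.22 and 7.33 on the KO-labelled arrays and 7.80, 7.47 and 7.52 on the WT arrays, the only member whose groups lay apart with KO-labelled values lower. The gap was narrow, and the difference of -0.26 was not called (SE 0.15, limma, adjusted p = 0.476). St3gal6 read 8.90, 8.85 and 8.48 on the KO-labelled arrays and 9.70, 7.74 and 9.5 on the WT arrays. The KO-labelled values lay inside the WT range, with WT replicate 2 far below the other WT arrays. The difference was -0.24 with a wide 95% confidence interval of -1.41 to 0.93 (adjusted p = 0.856), and without WT replicate 2 it was -0.86, without WT replicate 1 0.12.

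St3gal3, which acts on type 1 and type 2 chains, read 5.33, 5.50 and 5.21 on the KO-labelled arrays and 5.80, 5.47 and 5.55 on the WT arrays. The groups overlapped narrowly, and the difference was -0.26 (95% confidence interval -0.62 to 0.11, limma, adjusted p = 0.484). St3gal5, which makes the ganglioside GM3, read 3.80, 3.79 and 3.64 on the KO-labelled arrays and 3.62, 3.91 and 3.67 on the WT arrays. It was thus the only member outside the filter. At this level a fall would not be detectable, and the size of a rise would be understated. The upper ends of the intervals of the 5 tested alpha-2,3 genes, St3gal2 included, lay between 0.10 and 1.44. All were below the lower end of 1.90 for St6gal1, which is a description, since St6gal1 was taken up with its difference known.

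The enzymes for alpha-2,8 linkage and for N-acetylgalactosamine came next. St8sia4, the polysialyltransferase of lymphoid cells, read 8.32, 8.40 and 8.23 on the KO-labelled arrays and 8.22, 6.99 and 7.62 on the WT arrays. WT replicate 1 all but reached the KO-labelled values and WT replicate 2 was low. The difference was 0.70 (SE 0.30, 95% confidence interval 0.00051 to 1.41, limma, adjusted p = 0.354), and without WT replicate 2 it was 0.39.

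St6galnac4, which adds a further sialic acid to sialylated core 1, read 4.94, 4.93 and 4.65 on the KO-labelled arrays and 4.92, 5.02 and 4.92 on the WT arrays. The difference of -0.11 had an interval of -0.45 to 0.23 (limma, adjusted p = 0.750). St6galnac6, which acts on gangliosides and lies next to St6galnac4 on chromosome 2, was the member just inside the filter. It read 4.36, 4.11 and 4.40 on the KO-labelled arrays and 4.21, 4.09 and 4.53 on the WT arrays, around the table median, and the difference of 0.01 had an interval of -0.39 to 0.42 (adjusted p = 0.979) and turned to -0.05 with quantile normalization or median centring.

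Counted over the 10 genes, 9 were tested and 1, St6gal1, passed an adjusted p of 0.05, where 0.629% of all 10021 tested genes did and 0.269% were higher. At the study's threshold 3 were higher (St6gal1, St3gal2 and St8sia4) and 0 lower, beside 8.3% of all tested genes past it, 3.97% higher and 4.33% lower. This threshold was applied to moderated limma p-values, whereas the study took its p-values from Partek Genomics Suite, so the genes past it can differ. With the unmoderated linear model 1 member passed it. Without WT replicate 2 the members past it were 2 higher and 1 lower, the lower one being St3gal6 at -0.86. The groups did not overlap with KO-labelled values higher in St6gal1, St3gal2 and St8sia4, against 11.6% of all tested genes. They lay apart with KO-labelled values lower in St3gal4, against 10.9% (22.4% in either direction). The median difference of the 9 was -0.11, beside -0.01 over all tested genes, and 5 of the 9 means were lower in KO-labelled cells. The median and the shares are given as a description of genes that were chosen with results known.

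**Figure D3:**
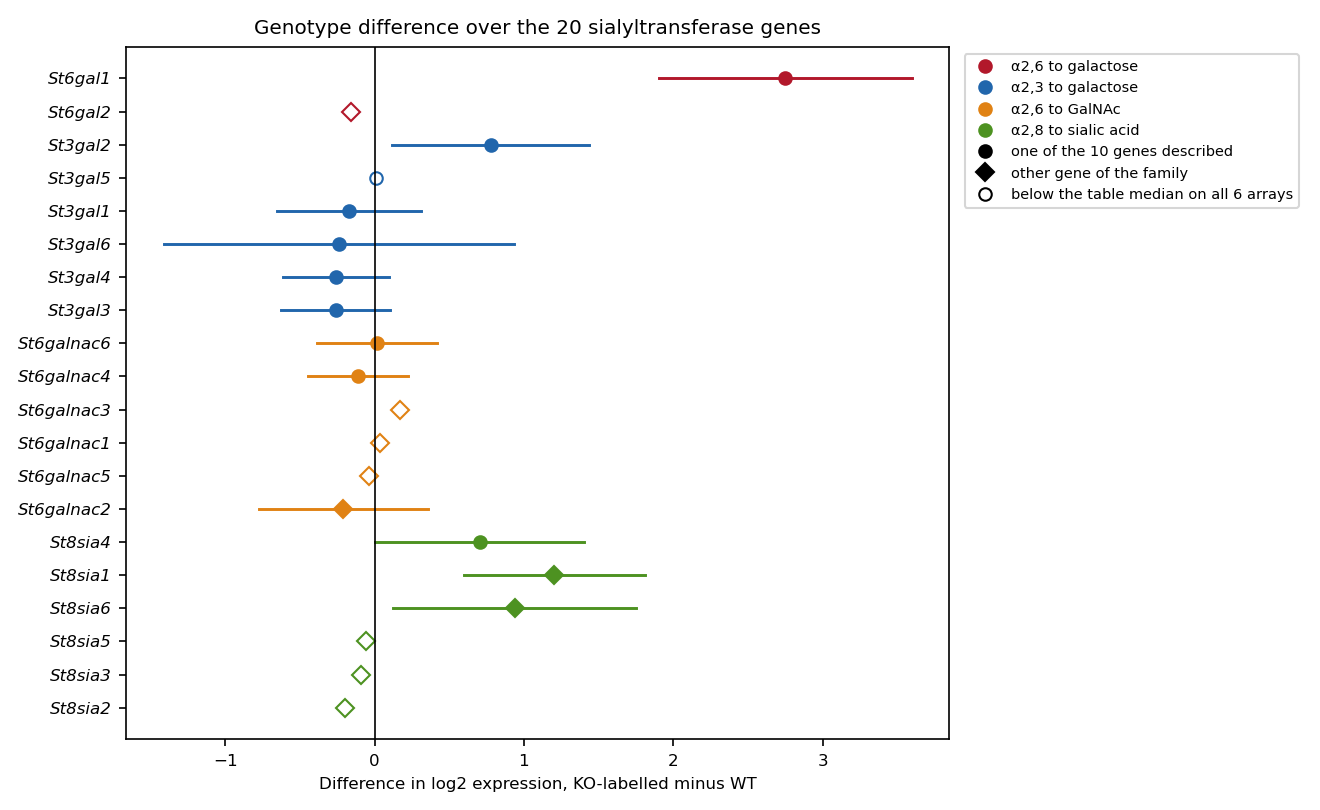
Difference in log2 expression, KO-labelled minus WT (horizontal axis), of the 20 sialyltransferase genes coloured by the bond they make, with 95% confidence intervals for tested genes. Circles are the 10 genes described and diamonds the others, and open symbols, drawn without an interval, are genes below the table median on all 6 arrays. St6gal1 stood at 2.75, while the 5 tested alpha-2,3 genes lay between -0.26 and 0.78.

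The other 10 genes of the family were mostly dim, with 7 below the table median on every array, St6gal2 among them, the second alpha-2,6 enzyme for galactose. The exceptions were St8sia1, St8sia6 and St6galnac2. St8sia1, the GD3 synthase, read 8.52, 9.38 and 8.59 on the KO-labelled arrays and 7.86, 7.55 and 7.46 on the WT arrays. The groups lay apart, and the difference was 1.20 (SE 0.26, 95% confidence interval 0.60 to 1.81, limma, adjusted p = 0.118). St8sia6 read 3.97, 5.44 and 4.69 on the KO-labelled arrays and 3.82, 3.70 and 3.76 on the WT arrays, and so was tested only through its KO-labelled values (difference 0.94, adjusted p = 0.301). None of the 3 tested alpha-2,8 genes was called over all genes, and the direction of St8sia6 was fixed by the filter. St8sia1, St8sia6 and St8sia4 were each higher at the study's threshold, which 3.97% of all tested genes passed as higher. With array weights, which called 547 genes in all, St8sia1 was called (limma, adjusted p = 0.0326).

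Genes that supply sialic acid had no member past the adjusted threshold. Of 8 tested genes for its synthesis, activation and transport, 0 passed in limma after adjustment, with a median difference of -0.14. At the study's threshold 1 was lower, beside 4.33% of all tested genes. That gene was Renbp, which interconverts N-acetylglucosamine and N-acetylmannosamine, at 4.09, 4.01 and 4.36 on the KO-labelled arrays and 5.79, 4.66 and 4.89 on the WT arrays (difference -0.96, adjusted p = 0.249). Among 5 tested genes for sialidases and for O-acetylation of sialic acid, 0 passed either threshold, and the smallest p was that of Casd1, the O-acetyltransferase, at 0.45 (limma, adjusted p = 0.345).

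Genes for the chains on which sialic acid is placed were counted in the same way, beside 3.97% of all tested genes higher and 4.33% lower at the study's threshold. Of 13 tested genes of N-glycan branching and galactosylation, 0 passed in limma after adjustment and 1 was lower at the study's threshold, with a median difference of -0.10. This was Mgat4a, which starts an antenna of N-glycans, at 7.29, 6.78 and 6.52 on the KO-labelled arrays and 7.94, 8.07 and 7.87 on the WT arrays. The groups lay apart, and the difference was -1.09 (SE 0.21, adjusted p = 0.0953). Of 12 tested genes for mucin-type O-glycan cores, 0 passed after adjustment, while 1 was higher and 2 were lower at the study's threshold, with a median difference of 0.07.

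Gcnt1, the core 2 branching enzyme, which competes with St3gal1 for core 1 chains, read 3.85, 3.91 and 3.82 on the KO-labelled arrays and 4.85, 5.74 and 5.25 on the WT arrays. All KO-labelled values were below the table median, where a log2 change is understated, so that Gcnt1 was tested only through its WT values. The difference was -1.42 (SE 0.23, limma, adjusted p = 0.0594). Galnt3, which starts O-glycans, read 5.83, 4.3 and 4.26 on the KO-labelled arrays and 6.54, 6.30 and 6.75 on the WT arrays (difference -1.73, adjusted p = 0.156). Galnt10, of the same enzyme group, stood 0.72 higher (adjusted p = 0.290).

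**Figure D4:**
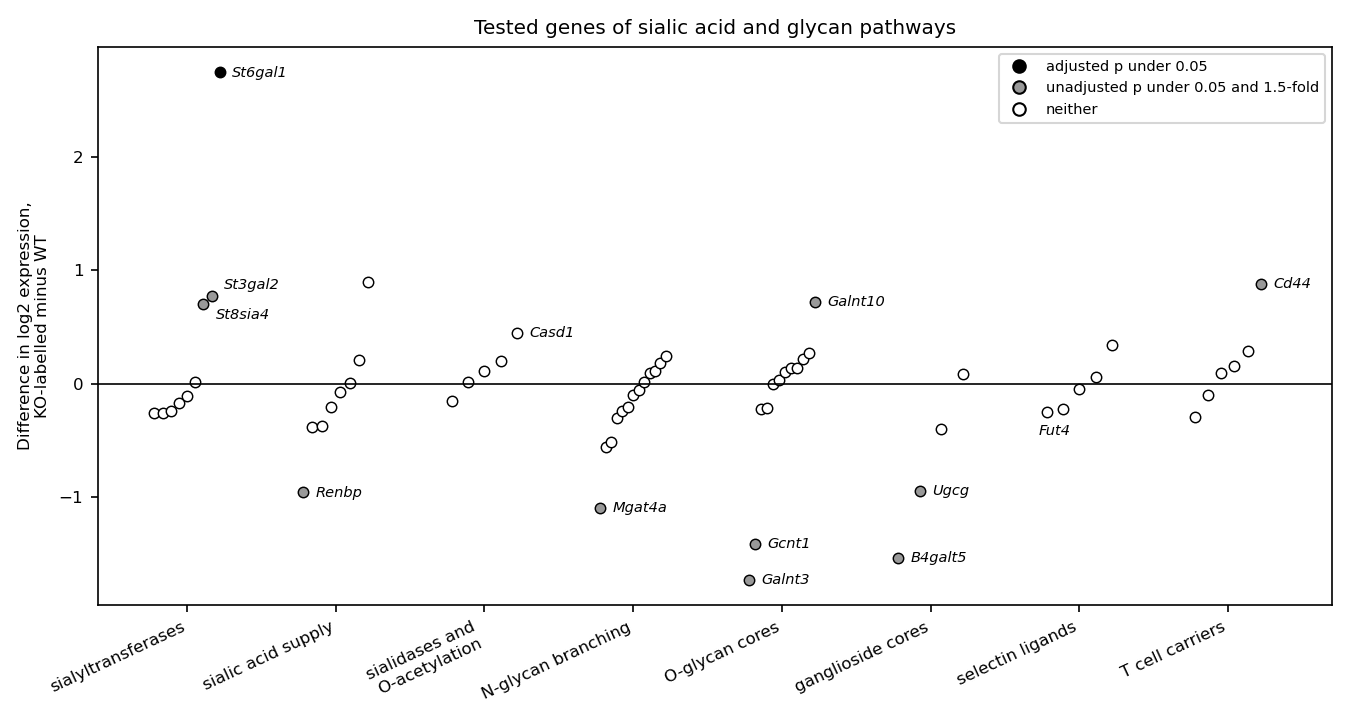
Difference in log2 expression, KO-labelled minus WT (vertical axis), of every tested gene in 8 lists of sialic acid and glycan genes, 1 point a gene; black points passed an adjusted p of 0.05, grey points the threshold of the study, and white points neither. St6gal1 at 2.75 is the only black point, and the lowest grey points are Galnt3 at -1.73, B4galt5 at -1.54 and Gcnt1 at -1.42. Gcnt1 was tested only through its WT values.

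Of 4 tested genes of ganglioside synthesis, 0 passed after adjustment in limma and 2 were lower at the study's threshold, beside 4.33% of all tested genes. Both act in steps to lactosylceramide, from which St3gal5 makes GM3. B4galt5, a lactosylceramide synthase, read 6.80, 5.68 and 6.36 on the KO-labelled arrays and 7.88, 7.98 and 7.60 on the WT arrays (difference -1.54, SE 0.29, limma, adjusted p = 0.0793). Ugcg, which makes glucosylceramide, read 8.90, 9.10 and 8.29 on the KO-labelled arrays and 9.85, 9.38 and 9.90 on the WT arrays (difference -0.95, adjusted p = 0.194). In both genes all KO-labelled values were below all WT values, which held for 10.9% of all tested genes.

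Carriers and readers of sialic acid were examined last, and 0 of their tested genes passed after adjustment. Of 5 tested genes of selectin ligands, 0 passed either threshold, and the smallest p was that of Fut4, a fucosyltransferase (difference -0.25, limma, adjusted p = 0.519). Of 6 T cell carriers, Cd44, the hyaluronan receptor, alone passed the study's threshold, as higher, beside 3.97% of all tested genes. It read 7.21, 6.14 and 6.86 on the KO-labelled arrays and 5.66, 5.66 and 6.26 on the WT arrays, with overlapping groups (difference 0.88, adjusted p = 0.287). Among Siglecs and related receptors 9 of 10 were below the table median on all arrays, Cd22 included, and the tested one, the paired receptor Pilrb1, passed the study's threshold as lower. It read 4.96, 4.84 and 4.18 on the KO-labelled arrays and 5.66, 5.75 and 5.42 on the WT arrays, with the groups apart (difference -0.95, adjusted p = 0.157).

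Markers of other cells are given beside St6gal1, which B cells also express. B cell markers were near background, with 10 of 12 measured genes below the table median on all arrays, Cd79a, Ms4a1, Pax5 and Cd22 among them, and a list mean of 3.60 to 3.80 in KO-labelled cells and 3.63 to 3.70 in WT cells. Of the others, Cd79b, above the table median on all arrays, had a difference of -0.93 (limma, adjusted p = 0.148). Bank1, tested only because KO-labelled arrays reached the table median, had a difference of 0.83 (adjusted p = 0.197). Dendritic cell markers were below the median in 11 of 13 genes, Itgax, Flt3 and Zbtb46 included, with a list mean of 3.53 to 3.78 in KO-labelled cells and 3.48 to 3.61 in WT cells. The 2 tested ones had higher means in KO-labelled cells with overlapping groups and were not called. Cd74 stood at 0.80 (limma, adjusted p = 0.463) and H2-Eb1 at 0.39 (adjusted p = 0.405). Only KO-labelled replicate 1, at 5.74, brought Cd74 to the table median, so that Cd74 was tested only through this array. Of 5 tested CD4+ T cell markers, 2 were higher at the study's threshold, beside 3.97% of all tested genes, and 0 passed after adjustment. The 2 were Cd4 at 0.95 and Zbtb7b at 0.64, both of which the study lists among earlier reported Runx3 targets. Tnfrsf4 had a difference of 1.06 with overlapping groups and Il2ra one of -0.30, and Cd40lg was below the table median on all arrays. The list mean was 6.20 to 6.80 in KO-labelled cells and 6.14 to 6.36 in WT cells. Of 6 tested NK cell markers, 5 were lower at the study's threshold, beside 4.33% of all tested genes, and 0 passed after adjustment. The list mean was 5.01 to 5.60 in KO-labelled cells and 6.15 to 6.37 in WT cells. Ncr1, Tyrobp, Klra8 and Fcgr3 were below the table median on all arrays. The lower ones included Nkg7 at -1.32, Gzma at -2.55, Klrc1 at -1.88 and Klrb1c at -1.56. Nkg7 was at 9.86 or more and Gzma at 6.95 or more on all arrays. Klrb1c read 3.74, 3.76 and 3.77 on the KO-labelled arrays, all below the table median. It was thus tested only through its WT values. The paper reports that nearly all cells were CD3+CD8-TC at the end of culture. Whether these genes were read in NK cells or in CD8-TC was not tested. In bulk RNA, fewer cells of a type and less RNA per cell cannot be told apart, and the part of the CD4+ T cell, NK cell and antigen-presentation markers in the results was not tested.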

How the data were processed

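Total RNA of 6 cultures, each from 1 mouse, was hybridised to Affymetrix mouse gene ST 1.0 arrays. The authors processed the scanner files in Partek Genomics Suite by robust multichip average with GC correction, and the deposited values are log2 expression values, 1 column per array. The sources used here give no versions of these tools. Such a summary understates changes of dim genes.

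Of 35399 rows, 21789 had exactly 1 gene symbol, which gave 19938 genes, with the row of highest mean per gene. Genes with at least 1 value at or above the table median (10021) were fitted with limma 3.58.1 (lmFit and eBayes in R 4.3.3, two-sided, no covariate), with Benjamini-Hochberg adjustment over all of them. Differences are KO-labelled minus WT, and SE and 95% confidence intervals are the moderated ones. The study's threshold was applied to the p-values of this fit, not to those of the study. Spread between arrays holds that of mice and of cultures. The fit was tested on simulated data. Figures were drawn with matplotlib 3.10.9.

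The members, lists and tests were chosen with earlier results of these data known. Named were Runx3, the family, list genes past a threshold (up to 4, else the smallest p), up to 4 markers per list and the 5 genes nearest to St6gal1. Alternatives were the filter, normalization, row choice, replicate block, variance prior, unmoderated model, array weights and arrays left out. Markers of macrophages (1 of 9 measured above the median, Cd68, -0.82) and of red cell precursors (0 of 2) were also read.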

Additional observations from a re-analysis of the deposited data

How the results depend on the processing

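The difference of St6gal1 kept its direction under all 17 alternatives but its call in 8 of them. It was no longer called with no filter on dim rows (2.75, limma, adjusted p = 0.0793), with the unmoderated linear model (2.75, adjusted p = 0.276) and with both replicates numbered 2 left out (2.62, adjusted p = 0.0746), and ranged from 2.52 to 3.18 with each array left out in turn. Same-numbered arrays had correlations of deviations between -0.37 and -0.13, and 0 of 3 KO-labelled arrays were closest to their own number. KO-labelled replicate 1 reached 0.43 with WT replicate 2, and KO-labelled replicate 2 reached 0.44 with WT replicate 3. With deviations from means of 3 arrays, this cannot show whether same-numbered cultures were handled together. With the replicate block the difference of St6gal1 was 2.75 (adjusted p = 0.154), 1 gene was called in all, 0 of the members were called and 1 passed the study's threshold.

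Among all genes 63 were called. The count was 36 with no filter, 547 with array weights and 9 to 67 with each array left out. It was 0 with the unmoderated linear model, which had 1173 genes at an unadjusted p under 0.05. At the study's threshold 832 genes passed, 508 with the unmoderated model and 652 to 1257 with each array left out. Of these 832 genes 398 were higher, whereas median centring gave 324 higher and 532 lower. Members called numbered 0 with no filter, with the unmoderated model and with both replicates numbered 2 left out, and 0 to 1 with each array left out. Members at the study's threshold numbered 1 with median centring and with the unmoderated model, and 1 to 3 with each array left out. They were 2 higher and 1 lower, St3gal6, with array weights (-0.89), without WT replicate 2 (-0.86) and with both replicates numbered 2 left out (-0.91). The causes were not tested.

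Direction turned in 2 members that were not called. St6galnac6 went to -0.0523 with quantile normalization and -0.0541 with median centring and ranged from -0.0769 to 0.142 with each array left out, and St3gal6 ranged from -0.86 to 0.12. Genes near the table median, St6galnac6 and St3gal5 above all, are limited by signal over background.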

Other observations

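Several sialic acid genes had 1 array apart from its group. WT replicate 2 was the lowest array for St3gal6 (7.74), for St8sia4 (6.99) and for Cmah, which hydroxylates CMP-sialic acid. Cmah read 9.77, 10.2 and 9.95 on the KO-labelled arrays and 9.67, 7.65 and 9.92 on the WT arrays, a difference of 0.90 (limma, adjusted p = 0.504) that was 0.18 without WT replicate 2. Cmah was chosen after its values were seen.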
